A study of Mus musculus with 17 samples.

Results

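The let-7 guide arms were followed in small RNAs (smRNAs) from mouse fecal exosomes, the membrane vesicles that cells release into the gut lumen. The guide arm is the strand of a microRNA (miRNA) hairpin that is usually loaded into the silencing complex, here the 5p arm. Members were taken by name: rows starting mmu-let-7 or mmu-miR-98 and ending in -5p, with let-7k, whose name carries no arm, added from a list of 10. Of that list 7 were among the 1487 smRNAs of the table, namely mmu-let-7a-5p, mmu-let-7b-5p, mmu-let-7c-5p, mmu-let-7d-5p, mmu-let-7e-5p, mmu-let-7i-5p and mmu-let-7k, written below without the species prefix. The other 3, let-7f-5p, let-7g-5p and miR-98-5p, were not analysed here, so the family total below is the sum over 7 members and not over the whole family.

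All 17 libraries came from IL-10 KO mice, which lack interleukin 10 in all cells, on a C57BL/6J background, a model of inflammatory bowel disease. The mice were obtained at 4 weeks of age and housed singly. The groups were 10 start-point libraries (7 male and 3 female mice) and 7 end-point libraries (5 from males, 2 from females), and the ages at those points are not given in the sources used here. Libraries of both time points existed for 6 mice, and end-point libraries 1 and 2 both carry the label of mouse 1. No wild-type library was analysed here, so a change with age cannot be told apart from a change with disease.

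The let-7 family is one of the most conserved groups of animal miRNAs. Its members share a seed, bases 2 to 8 of the mature strand, which pairs with target messages such as those of Ras, Hmga2 and Lin28. Its levels rise as cells differentiate, and the RNA-binding proteins Lin28a and Lin28b block its maturation; in the gut, Lin28b and let-7 act on epithelial growth and repair.

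The mature sequences are shown because the members differ by so few bases that how reads were assigned to them bears on each value. They are taken from RefSeq (GRCm38.p6), which matched all 7 members, and the capitals mark the seed.
let-7a-5p: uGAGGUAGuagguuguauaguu
let-7b-5p: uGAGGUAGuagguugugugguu
let-7c-5p: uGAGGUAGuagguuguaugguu
let-7d-5p: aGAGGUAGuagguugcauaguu
let-7e-5p: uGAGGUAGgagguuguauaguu
let-7i-5p: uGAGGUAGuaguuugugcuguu
let-7k: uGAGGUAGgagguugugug
let-7j, shown for contrast: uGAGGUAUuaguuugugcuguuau
All 7 members carried the same seed. Among the 1254 mature miRNAs of the table with a RefSeq sequence under the same name, no other one did. Counted from the 5′ end and with the base of let-7a-5p first, let-7c-5p differs by A19G alone and let-7b-5p by A17G and A19G. For let-7e-5p the 1 difference is U9G, just after the seed. let-7k, with 19 bases, shares U9G and adds A17G and A19G. let-7d-5p differs by U1A and U16C, and let-7i-5p by G12U, A17G, U18C and A19U. let-7j has G8U inside the seed, and it was not on the list of members.

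The genes lie on 7 chromosomes of GRCm38.p6. Mirlet7a-1 and Mirlet7d are on chromosome 13, where let-7a-5p spans 48538239 to 48538260 and let-7d-5p spans 48536078 to 48536099, both in exons of the long noncoding RNA 6720427I07Rik. Mirlet7c-2 and Mirlet7b are on chromosome 15, at 85706616 to 85706637 and 85707325 to 85707346 for the mature strands, both in exons of the noncoding transcript Lncppara. The letters of let-7c-5p also stand in Mirlet7c-1 on chromosome 16 (77599672 to 77599693, an intron of Mir99ahg), and those of let-7a-5p in Mirlet7a-2 on chromosome 9 (41536732 to 41536753, an intron of 3110039I08Rik). The Spaca6 gene on chromosome 17 holds let-7e-5p (17830366 to 17830387) in an intron. let-7i-5p is on chromosome 10 at 122985698 to 122985719, overlapping an exon of the pseudogene D630033A02Rik, and let-7k on chromosome 5 at 147283257 to 147283275, with no host gene in GENCODE vM21. A mature count therefore cannot be assigned to 1 gene for let-7a-5p or let-7c-5p.

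Library totals ran from 87527 to 178075 counts at the start-point and from 32320 to 161862 at the end-point. End-point libraries 1, 3 and 7 held under 75000 counts and are called shallow here. In these, 3 counts, taken as the smallest level a library can show, stood for 54.8, 92.8 and 47.0 CPM (counts scaled to a common library total), against 16.8 to 34.3 CPM at the start-point. Of 10 listed markers of the intestinal epithelium, 9 were in the table. Every smRNA of the table reached at least 10 counts in some library, so none of these could be at 0 in all libraries. Where 2 libraries carry 1 mouse's label, p-values over libraries count that mouse more than once. The intervals and this floor reflect counting error alone.

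The 7 members together made up a small part of these libraries. At the start-point they held 0.205 ± 0.133% of all counts (SD, n = 10), and at the end-point 0.0964 ± 0.0303% (SD, n = 7). Start-point library 3 was highest at 0.510% (95% Wilson interval 0.475 to 0.548%) and library 5 next at 0.371% (0.342 to 0.403%). The other 8 start-point libraries lay between 0.0887 and 0.200%, and the end-point libraries between 0.0384% (0.0251 to 0.0586%) in library 1 and 0.130% (0.111 to 0.152%) in library 4. The groups overlapped, and start-point libraries 3 and 5 stood above all the others. Without these libraries, which were singled out after their values were seen, the difference in means shrank from -0.108 to -0.0490 percentage points. A sum over chosen members was given no test.

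**Figure D1:**
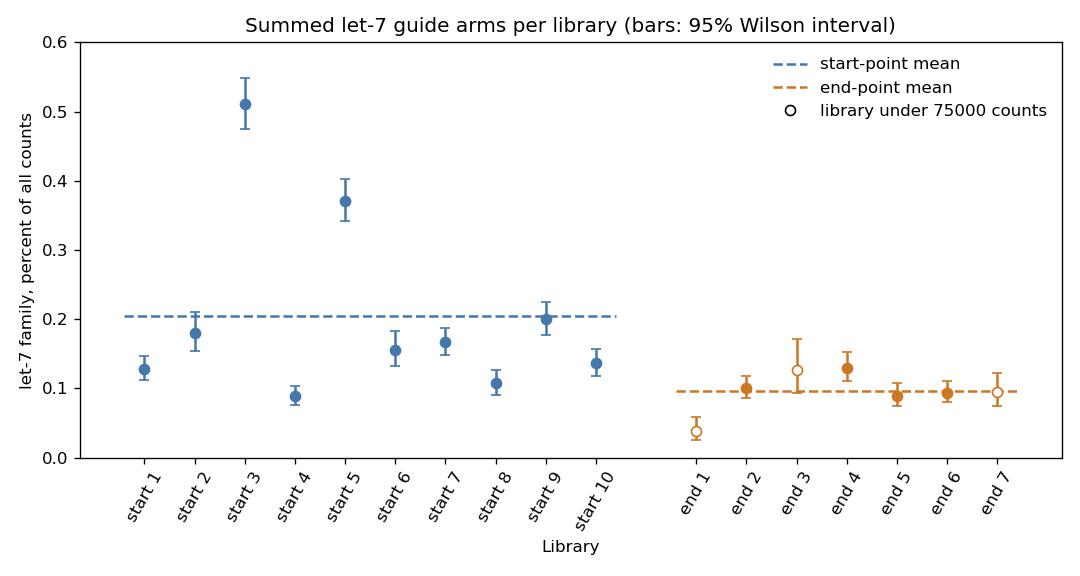
Summed counts of the 7 let-7 guide arms as a percent of all counts (y axis) in each start-point and end-point library (x axis), with 95% Wilson intervals, group means as dashed lines and open points for libraries under 75000 counts. Start-point libraries 3 and 5 stand apart at 0.510 and 0.371%.

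Within mice, the family total was lower at the end-point in all 7 pairs of libraries from 6 mice. Mouse 3 went from 5105 to 1269 CPM and mouse 5 from 3715 to 1300 CPM. The smallest step was in mouse 9, a female, from 1073 to 940 CPM. These shares are set against library totals. On that scale the median mature miRNA was also lower, at 198 ± 71.1 CPM (SD, n = 10) against 128 ± 59.5 CPM (SD, n = 7), so a lower CPM at the end-point was not particular to the let-7 members. In exosomal RNA, fewer vesicles from a cell type and less of a miRNA per vesicle cannot be told apart.

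No member was among the leading miRNAs of the libraries. Over start-point libraries let-7c-5p ranked 269 and let-7b-5p 334 of 1439 mature miRNAs by mean CPM, followed by let-7a-5p at 543, let-7e-5p at 932, let-7k at 961, let-7i-5p at 1012 and let-7d-5p at 1212. At the end-point let-7b-5p led at rank 442, let-7e-5p came next at 686 and let-7c-5p followed at 791. All 7 members were detected in each start-point library, whereas shallow end-point libraries 1, 3 and 7 held 4, 5 and 5 of them.

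The make-up of the family total was described by each member's share in every library. Per library, let-7c-5p held 30.1 ± 10.6% of start-point family counts (SD, n = 10) but 14.5 ± 5.86% of those at the end-point (SD, n = 7). let-7b-5p held 24.2 ± 6.36% and 35.6 ± 16.9%, and let-7e-5p 9.57 ± 6.54% and 22.9 ± 15.3%. let-7b-5p and let-7c-5p were thus the main forms at the start-point, and let-7b-5p alone led at the end-point. Of the rest, let-7a-5p held 15.5 ± 5.44% and 9.71 ± 6.99%, and let-7k 9.67 ± 7.61% and 2.28 ± 2.45%. let-7i-5p held 7.02 ± 1.28% and 8.82 ± 8.48%, and let-7d-5p 3.99 ± 1.05% and 6.15 ± 8.80%. Ranges overlapped for every member. End-point library 1 had only 21 family counts, so that its let-7e-5p share of 57.1% came from 12 counts, and without it the let-7e-5p difference fell from 13.3 to 7.59 percentage points. Without end-point library 7 the let-7b-5p difference fell from 11.4 to 5.61 percentage points. Leaving out all 3 shallow libraries moved the let-7a-5p difference from -5.74 to -0.878 percentage points, that of let-7b-5p from 11.4 to 4.85 and that of let-7e-5p from 13.3 to 7.20. The let-7i-5p difference then went from 1.79 to 7.80, that of let-7d-5p from 2.16 to 0.678, that of let-7k from -7.40 to -6.10 and that of let-7c-5p from -15.5 to -13.6. The order of the differences thus depended on the shallow libraries, apart from let-7c-5p, which had the largest with and without them. The sign of the let-7d-5p difference turned without end-point library 3, from 2.16 to -0.878, and that of let-7i-5p without end-point library 4, to -0.573 percentage points. The shares were described without a test.

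**Figure D2:**
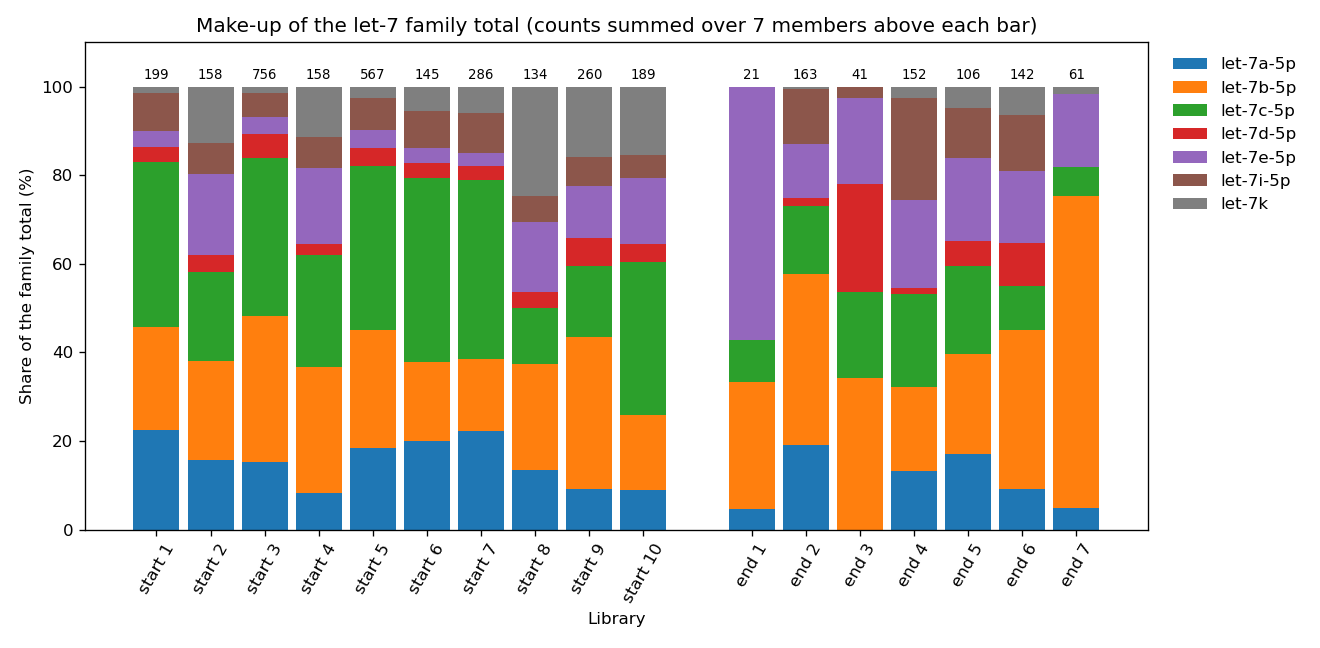
Share of each of the 7 members in the family total (y axis, percent) for every library (x axis), with the family counts behind each bar written above it. let-7c-5p takes 12.7 to 41.4% of start-point bars and 6.56 to 21.1% of end-point bars, and the bars of the shallow end-point libraries rest on 21, 41 and 61 counts.

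Whether single members changed with time point was asked in a model fitted over the whole table, edgeR's quasi-likelihood test with TMM factors, in which 1270 smRNAs passed the filter on low counts. Of those, 31.7% were called at an adjusted p under 0.05, 205 higher and 197 lower at the end-point, or 16.1% and 15.5% of smRNAs tested. Scaled by library totals alone the split was 133 higher and 311 lower, and the median log2 fold change over all smRNAs tested moved from -0.19 to -0.66. Of the 7 members 6 passed the filter, and of these 1 was called lower, let-7k, and 0 higher. That is close to the share called lower among all smRNAs. The members' median log2 fold change was -0.45. At an unadjusted p under 0.05 there were 3 of 6 members (let-7c-5p, let-7e-5p and let-7k), against 44% of all smRNAs tested. No member had groups that did not overlap in CPM, against 5.59% of all smRNAs tested.

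The count of members depended on the setting. With library totals only it was 3, all lower, where 35% of smRNAs were called, 10.5% higher and 24.5% lower. The DESeq2 Wald test also gave 3, 1 higher and 2 lower, beside 41% of smRNAs called, 18.7% higher and 22.4% lower. Without the shallow libraries it was 1, let-7e-5p and higher, beside 27.8% called, 16.6% higher and 11.2% lower. With mouse as a block, in libraries of the 6 mice with both time points, it was 0, where 4.98% of smRNAs were called. The pairing and the smaller set of libraries changed together here. The other blocked fits also gave 0 members, beside 3.5% called with no filter, 4.24% without the second end-point library of mouse 1 and 5.95% with it taken as mouse 2. In male libraries alone it was 0 beside 12.8%.

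let-7k, the shortest member, was called lower by edgeR over all 17 libraries, and whether it differed from the other members was not tested. Its counts at the start-point ran from 3 through a median of 17.5 to 41, or 19.4, 100.1 and 315 CPM. At the end-point they were 0, 1, 0, 4, 5, 9 and 1 in libraries 1 to 7, or at most 59.6 CPM. Groups overlapped through start-point library 1, at 19.4 CPM, while the other 9 start-point libraries lay above every end-point library. edgeR put the change at -1.69 ± 0.58 log2 units (SE), adjusted p = 0.0291, and let-7k was lower in all 7 pairs of libraries from 6 mice, a pattern shown by 15.7% of smRNAs tested. Several end-point values were at or under the floor of 3 counts. Without the shallow libraries the edgeR value was -0.91 (adjusted p = 0.197). With mouse as a block let-7k missed the filter, and in the block with no filter it had -1.65 (edgeR, adjusted p = 0.243). Leaving out start-point library 2, 8, 9 or 10, or end-point library 2 or 7, also ended the call, with edgeR adjusted p from 0.0514 to 0.0898. Over the other alternatives run the adjusted p lay between 0.00561 and 0.243.

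let-7c-5p, encoded beside let-7b and again in Mir99ahg, was lower on average at the end-point without passing the test over all 17 libraries. It ran from 136 through a median of 473 to 1823 CPM at the start-point and from 36.5 through 154 to 274 CPM at the end-point. Its lowest start-point value lay within the end-point range, as did that of library 4 at 225 CPM, and the others lay above it. edgeR put the change at -1.50 ± 0.63 log2 units (SE), adjusted p = 0.0711. Its CPM was lower in all 7 pairs within mice, a pattern shown by 15.7% of smRNAs tested. let-7c-5p was called with library totals only at -2.09 (edgeR, adjusted p = 0.00907) and by the DESeq2 Wald test at -1.46 (adjusted p = 0.0411). Without the shallow libraries it was -0.85 (edgeR, adjusted p = 0.357).

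let-7a-5p, identical in sequence to the let-7 first found in nematodes, followed let-7c-5p in direction. It ran from 73.0 through 288 to 783 CPM at the start-point and from 0 through 86.1 to 191.5 CPM at the end-point. The groups overlapped between 73.0 and 191.5 CPM, and the values of 0 and 18.3 CPM belonged to shallow libraries 3 and 1. edgeR put the change at -0.85 ± 0.68 log2 units (SE), adjusted p = 0.35. In CPM, which uses library totals and not TMM factors, the level was lower in all 7 pairs within mice. That pattern was shown by 15.7% of smRNAs tested. The call came with library totals only, at -1.63 (edgeR, adjusted p = 0.0392). Without the shallow libraries the value was -0.03 (edgeR, adjusted p = 0.981).

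let-7e-5p, made from the Spaca6 intron together with miR-99b and miR-125a, was the member with the largest positive fold change. It ran from 45.2 through 163 to 331 CPM at the start-point and from 124 through 169 to 257 CPM at the end-point. Start-point libraries 1, 6 and 7, at 45.2, 53.7 and 46.6 CPM, lay under every end-point library, and library 2 lay above all of them. edgeR put the change at 0.92 ± 0.40 log2 units (SE), adjusted p = 0.0823. Without the shallow libraries it was called higher at 1.36 (edgeR, adjusted p = 0.0205), and likewise by the DESeq2 Wald test at 0.96 (adjusted p = 0.0377). Without start-point library 2 it was called at 1.21 (edgeR, adjusted p = 0.0324), where 16.3% of smRNAs were called higher. With library totals only it was 0.27 (edgeR, adjusted p = 0.698). It was higher in the 5 pairs from 4 male mice and lower in both female pairs, from 168 to 152 CPM and from 238 to 157 CPM. The interaction of sex and time point for let-7e-5p was -0.52 ± 0.93 log2 units (SE; edgeR, adjusted p = 0.938).

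let-7b-5p and let-7i-5p gave no call in any setting run. let-7b-5p ran from 231 through 288 to 1681 CPM at the start-point and from 110 through 338 to 673 CPM at the end-point, and edgeR put the change at -0.05 ± 0.53 log2 units (SE), adjusted p = 0.954. The interval of this difference, -1.09 to 0.997 on the log2 scale at about 95% confidence, does not show that the level stayed the same. let-7i-5p ran from 61.8 through 127 to 284 CPM and from 0 through 101.3 to 299 CPM, with a change of 0.40 ± 0.67 log2 units (SE; edgeR, adjusted p = 0.683). Its sign turned with library totals only, to -0.41, and with mouse as a block, to -0.25. let-7d-5p did not pass the filter, since it had 4 to 40 counts at the start-point and 0 to 14 at the end-point. Its highest end-point value, 309 CPM in shallow library 3, came from 10 counts.

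**Figure D3:**
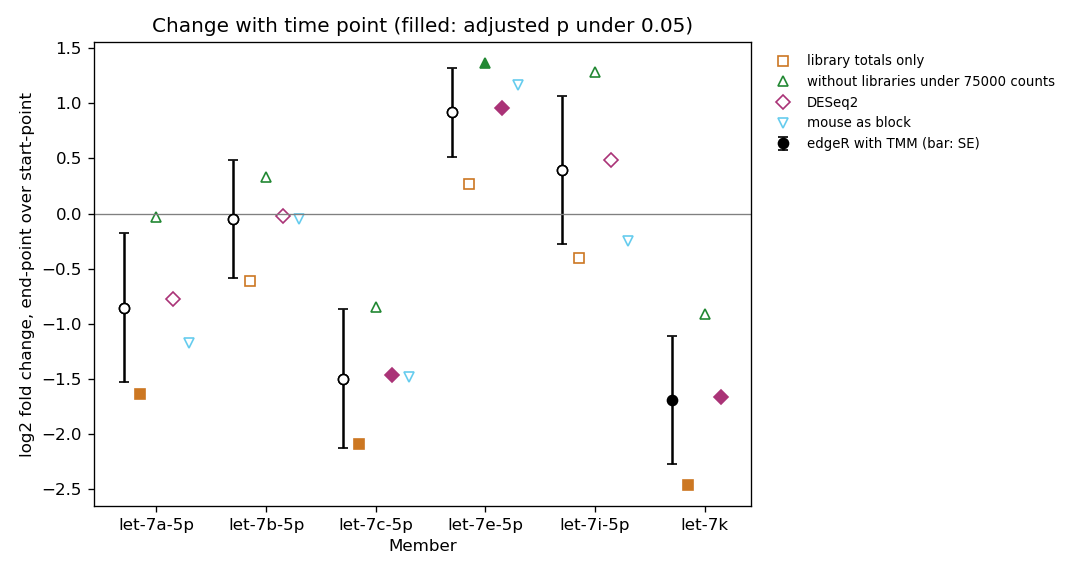
Log2 fold change of end-point over start-point (y axis) for the 6 tested members (x axis), by edgeR with TMM factors (circles with SE) and under 4 other settings, with filled symbols where the adjusted p was under 0.05. let-7k is filled in the edgeR fit at -1.69, and each of let-7a-5p, let-7c-5p and let-7e-5p is filled in at least 1 other setting.

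The start-point libraries themselves were unequal, and the members fell into separate patterns there. For let-7a-5p, let-7b-5p, let-7c-5p, let-7d-5p and let-7i-5p, start-point libraries 3 and 5 were the highest and second highest of 10. let-7c-5p had 1823 and 1376 CPM in them against at most 676 CPM in the other 8, and let-7a-5p 783 and 688 CPM against at most 373 CPM. Among all smRNAs tested, 3.07% showed these libraries at the top; the pattern was noticed after the values were seen. let-7e-5p and let-7k, the members that carry U9G, did not show it. let-7e-5p was highest in start-point libraries 2 and 9, at 331 and 238 CPM, and let-7k in libraries 9 and 8, at 315 and 264 CPM.

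**Figure D4:**
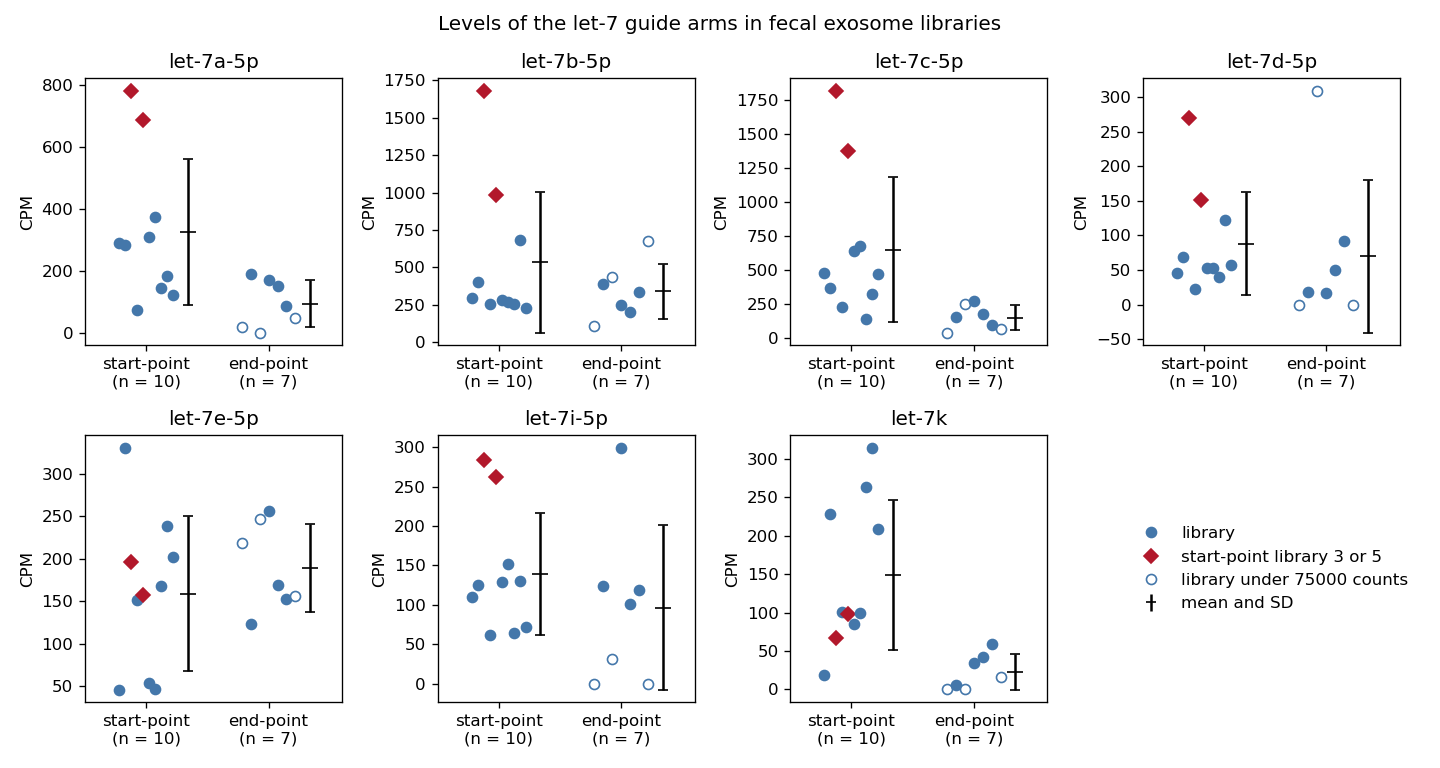
CPM (y axis, linear, own scale per panel) of each member in every start-point and end-point library (x axis), with mean and SD beside the points. Diamonds mark start-point libraries 3 and 5, which lead the start-point group for 5 members and not for let-7e-5p or let-7k, and open points mark libraries under 75000 counts.

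Other contents of libraries 3 and 5 stood high, low or in the middle of the start-point group. Their piRNA loci, small RNAs of another class, held 21.1 and 24.2% of counts, against 1.35 to 11.8% in the other 8 start-point libraries. The 11.8% was in start-point library 4, whose let-7 total of 0.0887% was the lowest of that group. At the end-point the piRNA share ran from 0.533% in library 1 to 20.2% in library 4. The let-7 totals of these libraries, 0.0384 and 0.130%, were also the lowest and highest of the end-point group. Between them the order differed: library 3 had 3.46% piRNA and 0.127% let-7, and library 7 had 14.2% and 0.0955%. The summed epithelial markers, 9 of 10 in the table, were at 19932 and 13306 CPM in them, within a start-point range of 3778 to 19932 CPM. The summed leukocyte markers, 6 of 8 in the table, were at 1492 and 1101 CPM, within 1101 to 4174 CPM, and the summed red cell markers, 3 of 4, at 338 and 347 CPM, within 263 to 1064 CPM. Smooth muscle markers, 2 of 2, were at 1357 and 662 CPM, within 163 to 1357 CPM. Of the red cell list, miR-451a was at 0 in 8 of 10 start-point and 3 of 7 end-point libraries. At the end-point the sums ran from 3032 to 38181 CPM for epithelium, 702 to 3414 CPM for leukocytes, 49.4 to 767 CPM for red cells and 282 to 11886 CPM for smooth muscle. By these sums start-point libraries 3 and 5 ranked 1 and 3 of 10 for epithelial markers. For leukocyte markers they ranked 8 and 10, and for smooth muscle markers 1 and 6. Rank 2 for epithelial markers was start-point library 4, at 18357 CPM, which had the lowest let-7 total of the group, 887 CPM. The part of any of these in the let-7 levels was not tested.

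The passenger arms, the strands that are usually degraded, had more counts than the guides for 3 of 5 hairpins summed over start-point libraries. Of the 5p and 3p counts of let-7b, the 5p arm made up 74.5 ± 12.2% in start-point libraries (SD, n = 10) and 94.0 ± 8.11% in end-point libraries (SD, n = 7), and let-7b-5p exceeded let-7b-3p in every library. let-7c-5p likewise exceeded let-7c-1-3p in every library, with 926 against 59 counts summed over the start-point and 106 against 2 over the end-point. For let-7e the 3p arm led, with 1824 counts against 209 summed over the start-point, and it was higher than let-7e-5p in 8 of 10 start-point libraries and 3 of 7 end-point libraries. Start-point library 4 alone held 950 of these let-7e-3p counts. let-7d-3p exceeded let-7d-5p in 9 of 10 start-point libraries and 3 of 7 at the end-point, where 3 others were tied, 1 of them at 0 counts. let-7a-2-3p exceeded let-7a-5p in 8 of 10 start-point libraries, and libraries 3 and 5 were the exceptions, with 66.7 and 71.4% of the 2 arms' counts in let-7a-5p; at the end-point let-7a-2-3p was higher in 6 of 7, and both arms were at 0 in library 3. The arm with the larger count thus differed between hairpins, and for let-7a-5p and let-7c-5p the guide counts pool 2 genes.

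**Figure D5:**
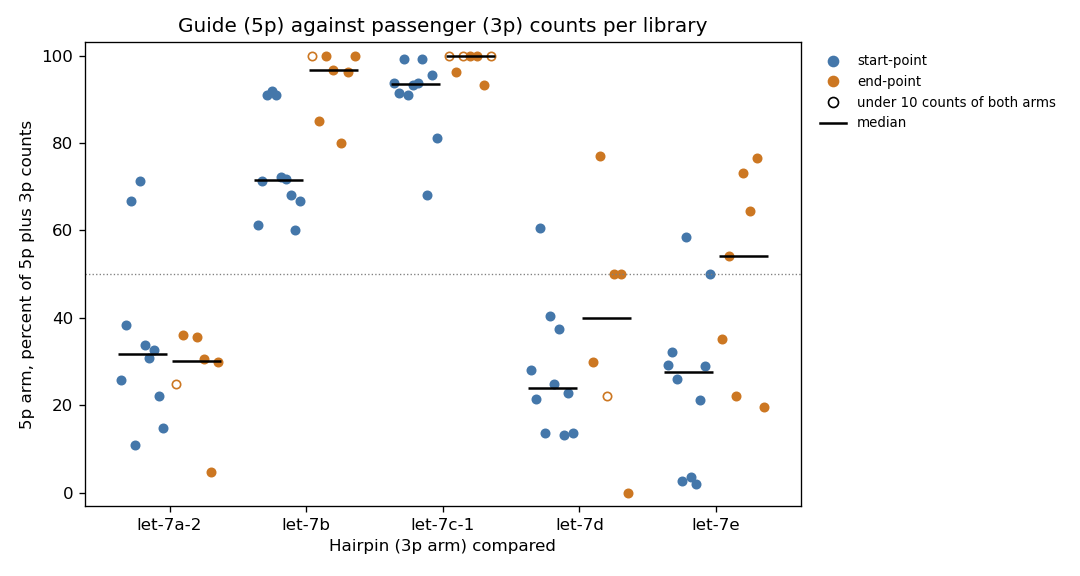
Counts of the 5p arm as a percent of 5p plus 3p counts (y axis) for 5 let-7 hairpins (x axis), 1 point per library, with medians as bars and open points where both arms together had under 10 counts. let-7b and let-7c-1 lie above 50% in every library, while most start-point libraries of let-7a-2, let-7d and let-7e lie under it.

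Of the 9 other let-7 and miR-98 rows in the table, 8 passenger arms and let-7j, 8 passed the filter. 1 was called higher, miR-98-3p, and 0 lower, where 16.1% and 15.5% of all smRNAs tested were, so the count does not exceed the background. These rows had a median log2 fold change of 0.07 against -0.19 over all smRNAs tested. miR-98-3p averaged 214.5 ± 117 CPM in start-point libraries (SD, n = 10) and 567 ± 572 CPM in end-point libraries (SD, n = 7), a rise of 1.79 ± 0.49 log2 units (SE; edgeR, adjusted p = 0.00872), and its groups overlapped. let-7e-3p averaged 1187 ± 1597 CPM (SD, n = 10) against 321 ± 325 CPM (SD, n = 7), a change of -2.02 ± 0.80 log2 units (SE; edgeR, adjusted p = 0.0573), so the arms of let-7e had fold changes of opposite sign. With mouse as a block 0 of the 8 were called (4.98% of all smRNAs), and with library totals only 0 were called higher and 2 lower (10.5% and 24.5% of all smRNAs).

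The miRNAs made from the same host transcripts as let-7 genes were the miR-99, miR-100 and miR-125 forms. Of 11 listed, 8 were in the table and 7 were tested, with 1 higher and 1 lower, close to the 16.1% and 15.5% of all smRNAs tested. miR-125b-2-3p, the passenger arm from the transcript of let-7c-1, rose by 2.20 ± 0.62 log2 units (SE; edgeR, adjusted p = 0.0109), with means of 673 ± 390 CPM at the start-point (SD, n = 10) against 1818 ± 2160 CPM (SD, n = 7). miR-99b-3p, from the let-7e transcript, fell by 1.52 ± 0.51 log2 units (SE; edgeR, adjusted p = 0.0265), from a mean of 268 ± 123 CPM to 94.2 ± 88.0 CPM (SD, n = 10 and 7). With mouse as a block 0 of the 7 were called (background 4.98%), and with library totals only 0 were called higher and 1 lower (background 10.5% and 24.5%).

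The smRNAs whose levels ran most like the family total were picked by Spearman correlation of log2(CPM + 1) over 17 libraries among 1264 non-members, as a description. miR-26a-5p came first, with a rho of 0.89 and a Pearson r of 0.64, followed by miR-6377 (0.87 and 0.72), miR-26b-5p (0.80 and 0.46), miR-194-5p (0.76 and 0.86) and miR-6385 (0.76 and 0.42). miR-194-5p is on the epithelial marker list. All of these points share the libraries' totals and the time point. For miR-194-5p, start-point libraries 3 and 5 stood out at 6658 and 2810 CPM, against at most 914 CPM in any other library. By contrast, miR-26b-5p was highest in start-point library 10, at 800 CPM. In shallow end-point libraries some were at 0: miR-26a-5p in 1, 3 and 7, miR-6377 in 1 and 3, miR-26b-5p in 3 and 7, and miR-6385 in 3.

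The sexes were compared with time point as a covariate. edgeR called 0 of 1462 smRNAs (0%) and 0 of the 7 members, with 124 smRNAs (8.48%) at an unadjusted p under 0.05, among them let-7a-5p and let-7c-5p. let-7c-5p averaged 798 ± 583 CPM (SD, n = 7) in start-point males and 309 ± 167 CPM (SD, n = 3) in females, while end-point males had 178 ± 93.0 CPM (SD, n = 5) against 77.7 ± 21.2 CPM in females (SD, n = 2). Its log2 difference of females over males was -1.92 ± 0.62 (SE; edgeR, adjusted p = 0.542), and for let-7a-5p it was -1.83 ± 0.71 (SE) at the same adjusted p. Start-point libraries 3 and 5 were both from males. The DESeq2 Wald test called 23 smRNAs (1.57% of 1462), let-7c-5p among them at -2.03 (adjusted p = 0.0243). It gave no adjusted p for let-7d-5p, let-7e-5p, let-7i-5p and let-7k, and smRNAs without one count as not called in that share. let-7k leaned the other way, at 263 ± 53.0 CPM (SD, n = 3) in start-point females and 99.96 ± 63.6 CPM (SD, n = 7) in males, with a log2 difference of 0.73 ± 0.57 (SE; edgeR, adjusted p = 0.726). The interaction of sex and time point gave 0 calls of 1462 in edgeR, with 75 smRNAs (5.13%) and 0 members at an unadjusted p under 0.05, and 3 calls (0.205%) by DESeq2.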

How the data were processed

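Exosomal RNA from mouse feces was made into libraries with the QIAseq miRNA kit, which adds unique molecular identifiers, per the labels' protocols. Whole-number counts for each smRNA were deposited as a single table, which the authors call raw; whether PCR copies were removed, the aligner and the rule for reads matching several miRNAs are not given in the sources used here, so counts of let-7 paralogs that differ by 1 base are uncertain. The submitters' processing notes name bcl2fastq and GRCm38.

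CPM are counts over library totals. Differences were tested with edgeR 4.0.16 in R 4.3.3 (glmQLFTest, TMM, filterByExpr, Benjamini-Hochberg over all smRNAs tested), called at an adjusted p under 0.05, with SE from the F statistic. DESeq2 1.42.0 and limma 3.58.1 were alternatives. On simulated counts with log2 fold changes of 3 the time point test recovered 99.4% of changed smRNAs with 3.43% of calls false. The simulation used 1 common dispersion and no pairing of mice, and its changes were larger than those of the members. Its rates therefore do not describe the members. Same-mouse libraries pair the time points by label; their deviations from group means correlated at -0.0720 to 0.260. All members are named, and so are the rows of the passenger arm and host transcript lists that edgeR called over all 17 libraries. Called rows of the cell type marker lists are not all named. let-7e-3p was added after its values were seen. Members and lists were chosen with earlier results of these data known.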

Additional observations from a re-analysis of the deposited data

Results flagged for a closer look

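In 38 groups of values, a sample was marked where its gap to the nearest other exceeded Dixon's limit. For independent, normally spread values chance alone does that in about 1 group of 20. CPM and shares from the same libraries are not such values, so that rate does not describe these groups. The rule marked 10 values, from 6 libraries, each the highest of its group.

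At the start-point, library 3 stood apart for let-7b-5p at 1681 CPM (next 983 CPM), let-7d-5p at 270 CPM (next 151 CPM) and miR-125b-2-3p at 1560 CPM (next 814 CPM). Start-point library 4 stood apart for let-7e-3p at 5335 CPM (next 2227 CPM).

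At the end-point, library 4 stood apart for let-7i-5p at 299 CPM (next 124 CPM) and for miR-125b-2-3p at 6597 CPM (next 1785 CPM). Shallow library 3 stood apart for let-7d-5p at 309 CPM (next 92.7 CPM) and for the let-7d-5p share of the family total at 24.4% (next 9.86%). The let-7b-5p share was 70.5% in shallow library 7 (next 38.7%), and the let-7e-5p share was 57.1% in shallow library 1 (next 19.7%).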

How the results depend on the processing

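Depth limits the members: with 0 to 14 counts of let-7d-5p and 0 to 9 of let-7k in an end-point library, single counts move the values. Of all smRNAs, 402 were called between time points, and 59 with mouse as a replicate block, 49 when end-point library 2 was dropped from that block, 68 with it taken as mouse 2, 52 in the block with no filter and 153 in male libraries only; leaving out 1 library gave 317 to 406. Of the members, 1 was called, against 3 with library totals only, 3 with DESeq2 and 0 in each of these blocks and in males only; leaving out 1 library gave 0 to 1. Without the shallow libraries the 1 member called was let-7e-5p in place of let-7k. In males only let-7k had -1.67 with an edgeR adjusted p of 0.143. End-point library 2 as mouse 2, the block with no filter and the removal of start-point libraries 3 and 5 were chosen after seeing the data. Every block held only the mice with libraries of both time points, so fewer libraries than the main fit.

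The log2 fold change of let-7i-5p turned to -0.41 with library totals only, -0.64 with limma-voom, and -0.25, -0.96, -0.48 and -0.26 in these blocks in the same order, and ran from -0.11 to 0.77 when 1 library was left out. That of let-7b-5p turned to 0.33 without the shallow libraries, 0.047 with a minimum of 10 counts in 7 libraries, 0.024 with limma-voom and 0.063 with sex as a covariate, and ran from -0.40 to 0.32 when 1 library was left out. For sex, library totals only turned let-7b-5p to 0.051 and let-7e-5p to 0.20 and gave 1 call; DESeq2 gave 23 calls and 1 member, and leaving out 1 library 0 to 1. The interaction had 3 calls with DESeq2, 2 without the shallow libraries and 0 to 1 when 1 library was left out. The causes were not tested. The family total stayed lower at the end-point in all alternatives run, by -0.146 percentage points within mice, and -0.121 to -0.0741 when 1 library was left out.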
